A study of Homo sapiens with 10 samples.

Results

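The data described here are RNA levels of 9 genes of the core pluripotency and LIN28 network in human embryonic stem cells: POU5F1, NANOG, SALL4, LIN28A, LIN28B, L1TD1, UTF1, ZSCAN10 and ZNF281. The genes were chosen by name, and each matched exactly 1 Ensembl identifier among the 55841 of the deposited count table, so that all 9 were found. All 9 also passed the filter on low counts, which kept 23552 genes. RNA was sequenced in bulk from the line that the labels call HES9, grown on Matrigel in mTESR1 medium, while the study's text names its transcriptome cells as WA09, and which name holds was not resolved here. The general population was the whole culture with no sorting, and HHH was the fraction sorted for the highest expression of the surface markers EPCAM, GCTM2 and CD9, each with 5 libraries: 2 of general and 2 of HHH cells in batch 1, and 3 of each in batch 2. The labels do not say whether replicates came from separate cultures, so the p-values measure the spread between these libraries, which may be technical. The series design mentions protein kinase C inhibitors, which no library's label carries, and the antigens used for the sort are not among the 9 genes. The comparison asked whether the regulators that define the pluripotent state differ in level between the sorted fraction and the whole culture.

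POU5F1 (OCT4) and NANOG are homeodomain transcription factors that, with SOX2, hold a stem cell in the pluripotent state by binding each other's regulatory DNA and that of many other genes. LIN28A and LIN28B are RNA-binding proteins that block the maturation of the let-7 microRNAs, a family that represses growth and developmental genes as cells differentiate. SALL4, ZSCAN10 and ZNF281 are zinc finger transcription factors tied to this network, UTF1 is a chromatin-bound protein of undifferentiated cells, and L1TD1 is an RNA-binding protein derived from the coding sequence of a LINE-1 transposon.

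Letters that OCT4 and SOX2 can bind are shown here in the promoter of NANOG, the only member that differed between the populations when both batches were fitted together. Whether they have a part in that difference was not tested. Promoter windows of RefSeq (GRCh38.p14, 250 bases before to 50 after the start of transcription) were found for 6 of the 9 genes, in 7 entries. The one of NANOG, chr12:7789152-7789451 on the plus strand, is shown with the octamer letters TTTGCAT and the SOX letters ACAATG in capitals, the letters that OCT4 and SOX2 are known to bind side by side.

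NANOG promoter: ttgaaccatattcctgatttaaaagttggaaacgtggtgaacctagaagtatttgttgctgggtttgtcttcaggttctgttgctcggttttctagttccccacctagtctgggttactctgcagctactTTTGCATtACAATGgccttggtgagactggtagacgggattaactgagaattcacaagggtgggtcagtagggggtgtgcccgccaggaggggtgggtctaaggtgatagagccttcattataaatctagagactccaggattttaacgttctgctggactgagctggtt

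With 1 base of any kind between them (TTTGCATNACAATG, searched on both strands), the pair lies 120 to 107 bases before the start in this window. It was found in 3 of 35116 promoter windows (0.00854%), and among the 6 members with a window only NANOG had it. Only these exact letters were searched. Other forms of the sites were not counted, so the share does not show how rare such sites are. The octamer letters alone were in 4.46% of windows and in 1 member, and the SOX letters alone in 10.8% of windows and in 3 members. These matches describe letters, and binding was not measured.

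The other axis of the network acts on RNA. The 9 mature 5p forms of the let-7 family in RefSeq share 1 seed, bases 2 to 8, in capitals, through which they pair with their target mRNAs. 5 of them are shown because they differ only outside it.

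let-7a: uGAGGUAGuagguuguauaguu
let-7b: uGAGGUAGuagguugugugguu
let-7d: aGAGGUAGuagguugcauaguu
let-7g: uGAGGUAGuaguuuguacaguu
miR-98: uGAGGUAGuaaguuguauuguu

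The zinc knuckles of LIN28 proteins are known to bind GGAG in the part of the precursor that lies between its arms. These letters were found there in 9 of the 12 let-7 family hairpins, and the hairpin of let-7g is shown with them in capitals (chr3:52268278-52268361, minus strand, GRCh38.p14).

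let-7g hairpin: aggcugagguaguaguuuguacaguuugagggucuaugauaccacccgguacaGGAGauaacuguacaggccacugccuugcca

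Mature microRNAs were not measured in these libraries, and the let-7 axis is described below through mRNAs only.

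The libraries held 47242595 to 78503395 counts. Counts are given as CPM, the common scale that divides a count by the library size after TMM scaling, whose factors ran from 0.832 to 0.925 in batch 1 and from 1.03 to 1.18 in batch 2. A floor of 3 counts stood for 0.0460 to 0.0687 CPM and covers counting error only. Markers of the undifferentiated state summed to 3860 to 4890 CPM in the 5 general and 3880 to 4770 in the 5 HHH libraries. The sum was led by DNMT3B, a DNA methyltransferase of pluripotent cells, PODXL and DPPA4. These abundant markers go with the label of embryonic stem cells. Not all of the list was abundant: FGF4, DPPA3, DPPA5 and LINC-ROR averaged 0.173, 0.359, 0.401 and 0.365 CPM in general cells. In bulk samples, fewer cells that express a gene and less RNA of it per cell cannot be told apart.

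Per kilobase of exonic length, LIN28A was the most abundant of the 9 genes in all 10 libraries. Its level was 531 ± 70.3 CPM per kilobase in general and 464 ± 84.0 in HHH cells (SD, n = 5 each). LIN28A alone took 0.123 to 0.265% of all counts of a library, and its place among all genes by count ran from 15 to 37. POU5F1 came next with 180 ± 10.7 CPM per kilobase in general and 198 ± 25.1 in HHH cells, then L1TD1 with 145 ± 32.9 and 170 ± 41.8. The ranges of POU5F1 and L1TD1 over the 10 libraries overlapped, so their order is not set. LIN28B stood at 54.5 ± 4.37 CPM per kilobase in general cells and SALL4 at 43.6 ± 5.4, again with overlapping ranges over the libraries. Below them, each range lay apart from the next: ZSCAN10 at 24.6 ± 3.77 in general cells, ZNF281 at 17.4 ± 0.455, NANOG at 6.04 ± 0.671 and UTF1 at 0.365 ± 0.180 CPM per kilobase. These levels depend on the exons counted as the gene's length, and in the log2 values that the authors deposited POU5F1 and L1TD1 changed places, as did ZSCAN10 and ZNF281.

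**Figure D1:**
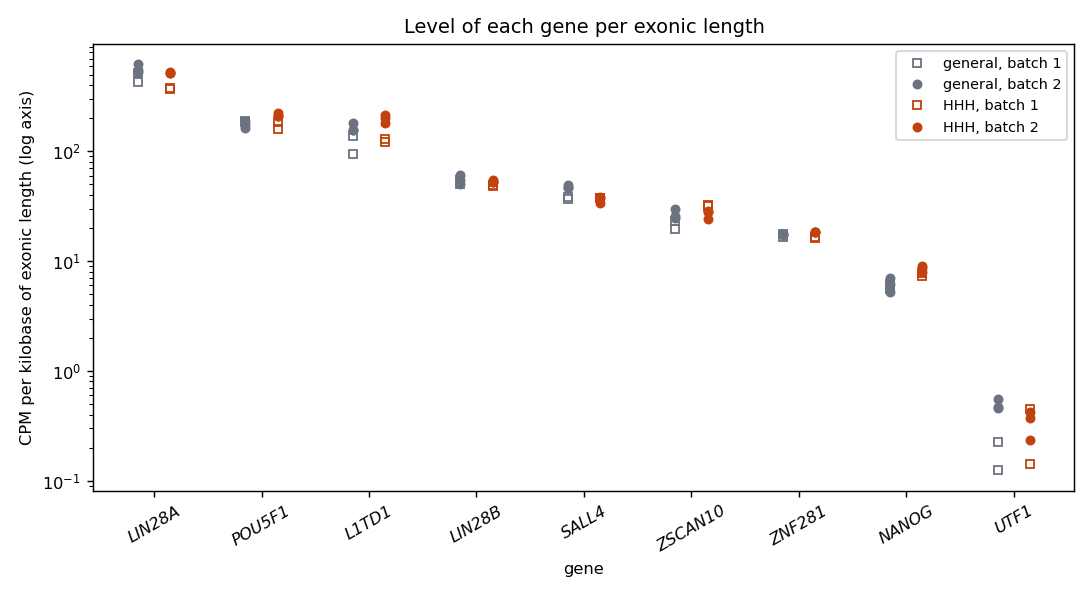
Level of each gene in every library, in CPM per kilobase of exonic length on a log axis, with general cells in grey and HHH in orange, open squares for batch 1 and filled circles for batch 2. LIN28A lies above all other genes and UTF1 below all others in every library, while POU5F1 and L1TD1, and LIN28B and SALL4, overlap.

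Of the 9 genes, 1 was higher in HHH and 0 were lower at an adjusted p under 0.05 in edgeR's quasi-likelihood test with batch as a term, beside 1.94% of all tested genes called higher and 3.89% called lower. At an unadjusted p under 0.05, 2 members were higher and 2 lower. DESeq2 and limma with voom also called 1 member higher and 0 lower. No member passed when a fold change over 1.5 was also asked, which 2.98% of all tested genes did. The median log2 fold change of the 9 was 0.02, and that of all tested genes was 0.016. Fitted within batches, batch 1 called 0 of the 9 members, with 2 higher and 1 lower at an unadjusted p under 0.05, beside 0.573% of all tested genes called, and batch 2 called 2, 1 in each direction, beside 13.2%. The interaction of batch and population passed for 0 members, with 1 higher and 2 lower at an unadjusted p under 0.05, beside 0.777% of all genes. Whether the populations overlapped within a batch is described for each member below. With so few libraries in a batch, separation often arises by chance. The share of all tested genes that separate in this way is not given here, so separation alone is no result.

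**Figure D2:**
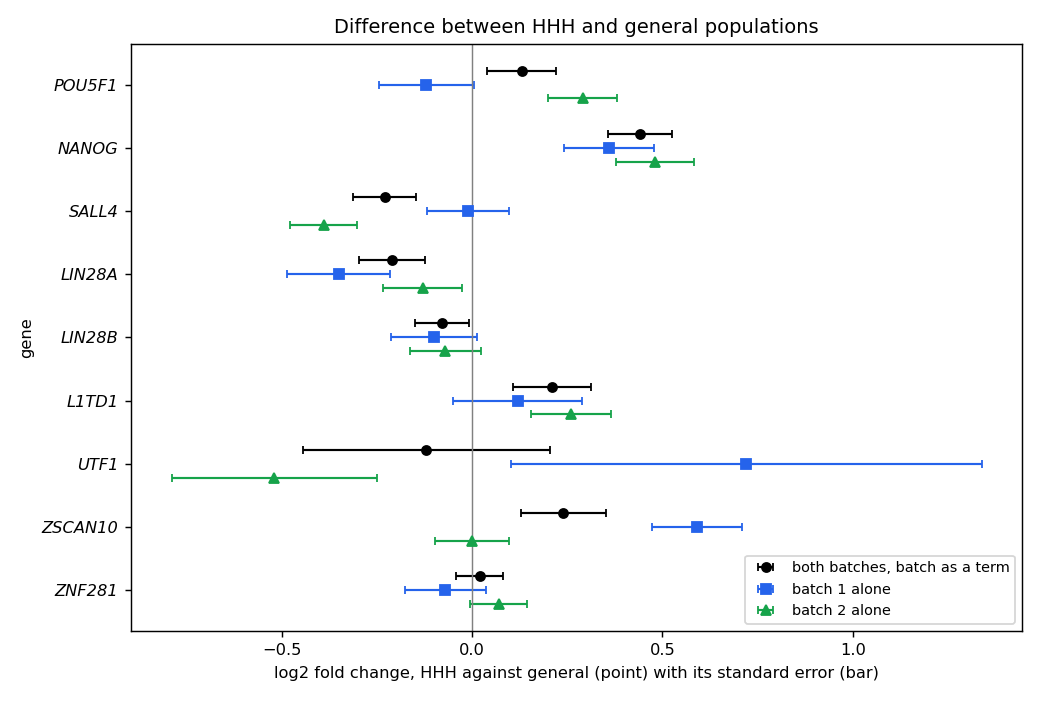
Log2 fold change of HHH against general cells for each gene, as a point with its standard error as a bar, in the fit of both batches (black circles), batch 1 alone (blue squares) and batch 2 alone (green triangles), with a line at 0. The 3 estimates lie close together on the positive side for NANOG, and the batches lie apart for POU5F1, SALL4, UTF1 and ZSCAN10.

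NANOG (ENSG00000111704, chromosome 12, 7787794 to 7799146, plus strand, GRCh38 in GENCODE 44, protein coding) was higher in HHH. In general cells it had 30.3 and 33.4 CPM in batch 1 and 33.1, 37.8 and 28.2 CPM in batch 2. In HHH cells it had 42.3 and 39.4 CPM in batch 1 and 48.9, 46.8 and 43.4 CPM in batch 2. Every HHH library lay above every general library, over both batches as within each. The means were 32.5 ± 3.62 CPM in general and 44.2 ± 3.75 CPM in HHH cells (SD, n = 5), a 1.36-fold difference with a log2 fold change of 0.44 ± 0.0837 (SE) and an adjusted p of 0.00572 in edgeR's test. Batch 2 alone gave 0.48 ± 0.102 with an adjusted p of 0.00923, and batch 1 alone gave 0.36 ± 0.119 with an adjusted p of 0.277, and the interaction of batch and population did not pass (adjusted p = 0.698). The call held with any 1 of the 10 libraries left out, with an adjusted p from 0.00464 to 0.0245, and in 22 of 25 alternatives in all. It was lost in batch 1 alone, with no batch term (adjusted p = 0.0763) and in limma on the deposited log2 values (0.31, adjusted p = 0.273), where all tested genes had a median of -0.123. With each library of those values centred on its median, NANOG had 0.46 and an adjusted p of 0.0361.

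POU5F1 (ENSG00000204531, chromosome 6, 31164337 to 31180731, minus strand) did not pass. In general cells its level was 542 and 531 CPM in batch 1 and 539, 499 and 470 CPM in batch 2. In HHH cells it was 461 and 532 CPM in batch 1 and 609, 606 and 641 CPM in batch 2. The populations overlapped in batch 1 and did not in batch 2, where all 3 HHH libraries lay above the 3 general ones. The log2 fold change was 0.13 ± 0.0899 (SE) in the fit of both batches (adjusted p = 0.417), -0.12 ± 0.124 in batch 1 and 0.29 ± 0.0917 in batch 2 (adjusted p = 0.0532, and from 0.063 to 0.179 with 1 library left out), and the interaction had an unadjusted p of 0.0130 and an adjusted p of 0.167 in edgeR's test. Of its exonic bases 8.64% also belong to TCF19 on the other strand, and the strand setting of the counting is not given in the sources used here.

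The level of NANOG relative to POU5F1 was also read within each library, where the scaling of libraries cannot move it. The log2 ratio of NANOG to POU5F1 counts per exonic length was -5.07 and -4.90 in the general libraries of batch 1 and -4.94, -4.63 and -4.97 in those of batch 2. In HHH it was -4.36 and -4.66 in batch 1 and -4.55, -4.60 and -4.80 in batch 2. Batch 1 separated the populations. In batch 2 they overlapped, with general replicate 2, at -4.63, above HHH replicate 3, at -4.80. Set beside the general library of the same batch and replicate number, HHH was higher in 4 of 4 pairs, by 0.54 in batch 1 and by 0.39, 0.03 and 0.17 in batch 2, a mean of 0.28 with a two-sided exact sign-flip permutation p of 0.125, the smallest that 4 pairs allow. The difference within batches was 0.31 on the log2 scale, with a two-sided exact permutation p of 0.0333 over the 120 arrangements of labels within batches, which can go no lower than 0.0167, and 0.05 after adjustment over the 2 ratios tested, which is not under the threshold.

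Both genes have near-identical copies elsewhere in the genome, and the counts show how much rests on where a read was placed. NANOGP8, a retrotransposed copy of NANOG, was listed with 1371 to 2183 counts, 71.6 to 84.9% of the counts on NANOG in the same library. Over the 915 bases of the NANOG coding sequence the transcripts differ at 5 positions, and 45.6% of all runs of 100 bases of it are also in NANOGP8. The 120 bases with the most differences between the pair, coding bases 25 to 144 in GENCODE 44, hold 2 of them, in capitals.

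NANOG: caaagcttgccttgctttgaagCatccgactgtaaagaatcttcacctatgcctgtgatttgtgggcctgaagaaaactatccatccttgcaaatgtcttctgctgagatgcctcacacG
NANOGP8: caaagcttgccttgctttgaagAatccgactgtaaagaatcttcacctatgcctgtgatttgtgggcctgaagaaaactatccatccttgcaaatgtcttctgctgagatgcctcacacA

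NANOGP8 was higher in HHH as well, with a log2 fold change of 0.40 ± 0.0771 (SE) and an adjusted p of 0.00609 in edgeR's test. NANOGP1, NANOGP4 and NANOGP2, with at most 202 counts each, had log2 fold changes of 0.40, 0.42 and 0.62 and did not pass. Whether any copy was transcribed, or its counts are reads of NANOG, cannot be told apart at gene level. With all copies added to NANOG, an alternative chosen after seeing the data, its log2 fold change was 0.42 ± 0.0754 with an adjusted p of 0.00380.

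POU5F1 has 3 such copies with many counts. POU5F1P3 had 5997 to 10290 counts, 25.6 to 31.2% of those on POU5F1, POU5F1P4 had 777 to 1345, and POU5F1B, which is annotated as protein coding, had 6286 to 13370. The share on POU5F1B was 28.9 to 30.4% of POU5F1 in the 4 libraries of batch 1 and 35.9 to 40.2% in the 6 of batch 2, with no overlap between batches, while POU5F1P3 overlapped between them. POU5F1P3 aligned to 1076 of the 1080 coding bases of POU5F1 with 98.1% identity, and 15.7% of the runs of 100 coding bases were shared.

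Of these 3 copies none passed between the populations, with log2 fold changes from 0.03 to 0.09 and adjusted p from 0.584 to 0.875. With its copies added, POU5F1 gave 0.11 ± 0.0878 (SE) and an adjusted p of 0.491. The levels of POU5F1 and NANOG are thus uncertain by the size of these shares, and the direction for NANOG was the same either way. The copies of LIN28A and SALL4 held at most 61 and 4 counts.

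**Figure D3:**
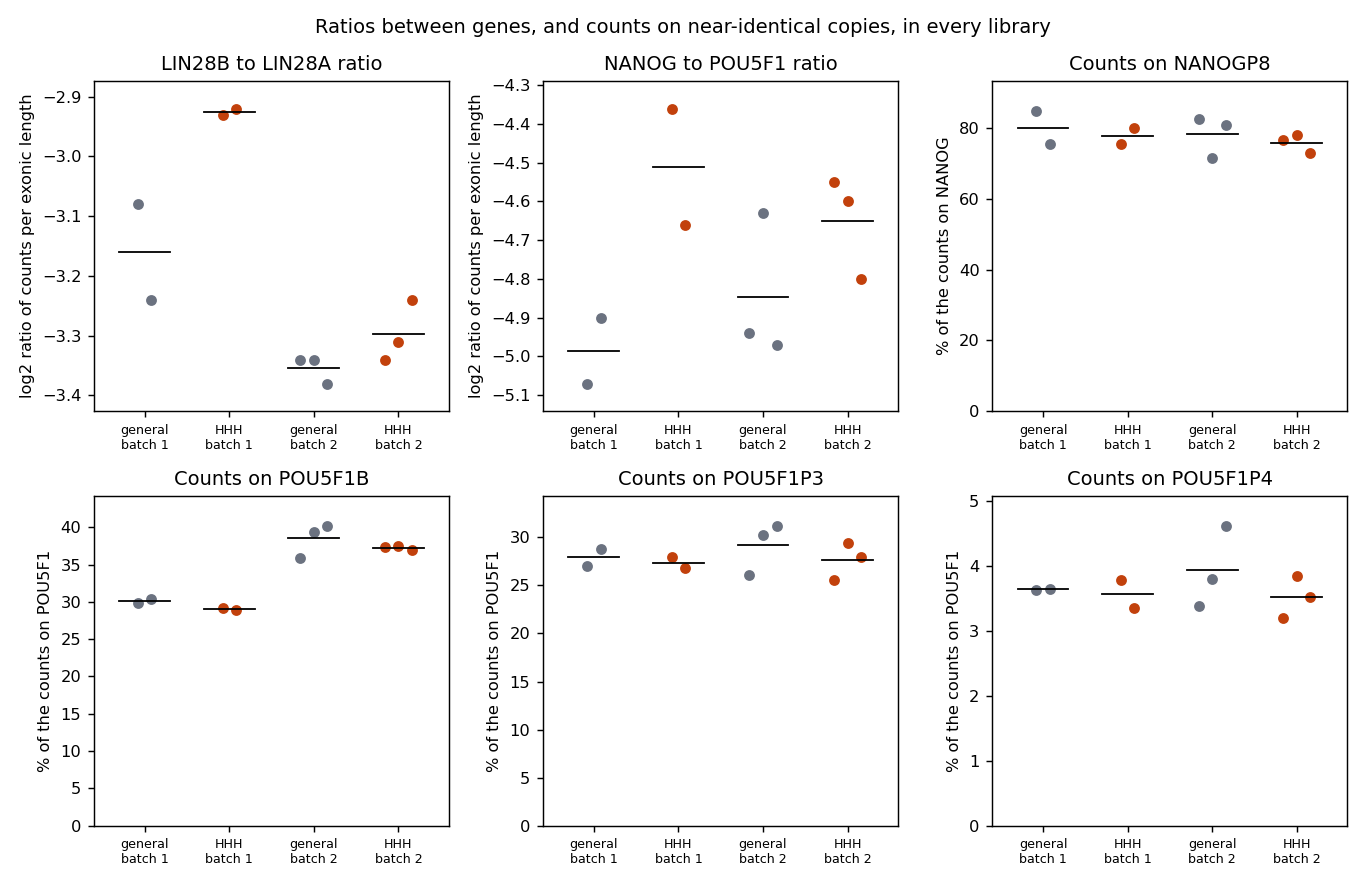
Log2 ratios of LIN28B to LIN28A and of NANOG to POU5F1 (counts per exonic length), and counts on NANOGP8, POU5F1B, POU5F1P3 and POU5F1P4 as a percent of the counts on their parent gene, in every library, with a line at the mean of each population and batch. POU5F1B lies at 28.9 to 30.4% in batch 1 and at 35.9 to 40.2% in batch 2, and the other copies overlap between batches.

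SALL4 (ENSG00000101115, chromosome 20, 51782331 to 51802521, minus strand), a zinc finger factor that binds the NuRD corepressor, differed in 1 batch. General cells had 215 and 222 CPM in batch 1 and 266, 284 and 272 CPM in batch 2. HHH cells had 219 and 217 CPM in batch 1 and 217, 221 and 194 CPM in batch 2. The 3 general libraries of batch 2 stood above all 7 others, which lay between 194 and 222 CPM. SALL4 was therefore lower in HHH in batch 2, with a log2 fold change of -0.39 ± 0.0876 (SE) and an adjusted p of 0.0134, while batch 1 gave -0.01 ± 0.108 (adjusted p = 0.983). The batch 2 call held with each of its 6 libraries left out (adjusted p from 0.0173 to 0.0465). Over both batches the value was -0.23 ± 0.0821 with an adjusted p of 0.126, and the interaction had an unadjusted p of 0.0122 and an adjusted p of 0.164, so a difference between the batches was not shown after adjustment. ZSCAN10 gave the opposite picture.

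ZSCAN10 (ENSG00000130182, chromosome 16, 3088890 to 3099295, minus strand) encodes a zinc finger protein that is known to act beside OCT4 and SOX2. Its level was 64.4 and 76.4 CPM in general and 108 and 106 CPM in HHH cells of batch 1. In batch 2 it was 85.8, 81.0 and 98.2 CPM in general and 92.2, 93.7 and 79.8 CPM in HHH cells. Batch 1 separated the populations and batch 2 did not. The log2 fold change was 0.59 ± 0.118 (SE) in batch 1 (adjusted p = 0.0799) and 0.00 ± 0.0976 in batch 2 (adjusted p = 0.984), and the interaction had an unadjusted p of 0.00196 and an adjusted p of 0.0966 in edgeR's test. Over both batches ZSCAN10 had 0.24 ± 0.111 and did not pass (adjusted p = 0.231).

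ZNF281 (ENSG00000162702, chromosome 1, 200404940 to 200410056, minus strand), a zinc finger repressor known to bring NuRD to the NANOG promoter, had the narrowest range of the 9 relative to its level. It ranged from 80 to 90.9 CPM over the 10 libraries, with means of 85.3 ± 2.24 CPM in general and 86.5 ± 5.34 CPM in HHH cells (SD, n = 5). The populations did not overlap within either batch, but HHH lay below general cells in batch 1 and above them in batch 2, and neither batch passed. The log2 fold change was 0.02 ± 0.0616 (SE, adjusted p = 0.892), close to the median of all tested genes, 0.016.

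UTF1 (ENSG00000171794, chromosome 10, 133230217 to 133231558, plus strand) had the fewest counts of the 9 genes. It had 18 and 9 counts in general and 8 and 24 in HHH cells of batch 1, and 32, 38 and 34 counts in general and 30, 26 and 16 in HHH cells of batch 2. The 3 general libraries of batch 2 were the highest and lay apart from HHH, and in batch 1 the populations overlapped. Its log2 fold change was -0.12 ± 0.325 (SE, adjusted p = 0.873), 0.72 ± 0.619 in batch 1 and -0.52 ± 0.269 in batch 2, so that the batches had opposite signs and UTF1 did not pass in either batch or over both.

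LIN28A (ENSG00000131914, chromosome 1, 26410817 to 26429728, plus strand) had 1710 and 2050 CPM in general and 1470 and 1490 CPM in HHH cells of batch 1. In batch 2 it had 2210, 2480 and 2110 CPM in general and 2120, 2080 and 2060 CPM in HHH cells. Each of the 5 HHH libraries lay below the mean of the general libraries of its batch, with no overlap in batch 1 and overlap in batch 2. The log2 fold change was -0.21 ± 0.0858 (SE) with an adjusted p of 0.182 in edgeR's test, and the batches gave -0.35 ± 0.135 and -0.13 ± 0.103, so LIN28A did not pass.

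LIN28B (ENSG00000187772, chromosome 6, 104936616 to 105083332, plus strand), the paralog of LIN28A, varied less. It stood at 301 and 323 CPM in general and 288 and 295 CPM in HHH cells of batch 1, and at 326, 365 and 303 CPM in general and 312, 313 and 327 CPM in HHH cells of batch 2. All HHH libraries lay below the mean of general cells of their batch, with no overlap in batch 1 and overlap in batch 2. The log2 fold change was -0.08 ± 0.0711 (SE, adjusted p = 0.572), and 3.05% of its exonic bases are shared with LIN28B-AS1 on the other strand.

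The balance of the paralogs was read within libraries, per exonic length. The log2 ratio of LIN28B to LIN28A was -3.08 and -3.24 in general and -2.93 and -2.92 in HHH cells of batch 1, and -3.34, -3.34 and -3.38 in general and -3.34, -3.31 and -3.24 in HHH cells of batch 2. In linear terms LIN28B stood at 0.0961 to 0.132 of the level of LIN28A. The batches lay further apart than the populations, and the difference within batches was 0.13 on the log2 scale, 0.24 in batch 1 and 0.05 in batch 2. The two-sided exact permutation p was 0.05, and 0.05 after adjustment over the 2 ratios, so the ratio did not pass.

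L1TD1 (ENSG00000240563, chromosome 1, 62194849 to 62212328, plus strand), whose protein is known to bind RNA in complexes with LIN28, varied most between libraries among the abundant members. It had 362 and 527 CPM in general and 502 and 468 CPM in HHH cells of batch 1. In batch 2 it had 699, 596 and 602 CPM in general and 822, 775 and 688 CPM in HHH cells. Both batches had overlapping populations, and all 6 libraries of batch 2 lay above the 4 of batch 1. The log2 fold change was 0.21 ± 0.102 (SE) with an adjusted p of 0.253 in edgeR's test, and it did not pass with any 1 library left out (adjusted p from 0.052 to 0.441). In batch 2 alone it had 0.26 ± 0.105 and an adjusted p of 0.116, which came to 0.0487 without HHH batch 2 replicate 3. Of its exonic bases 2.87% are shared with a Y RNA gene on the same strand.

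**Figure D4:**
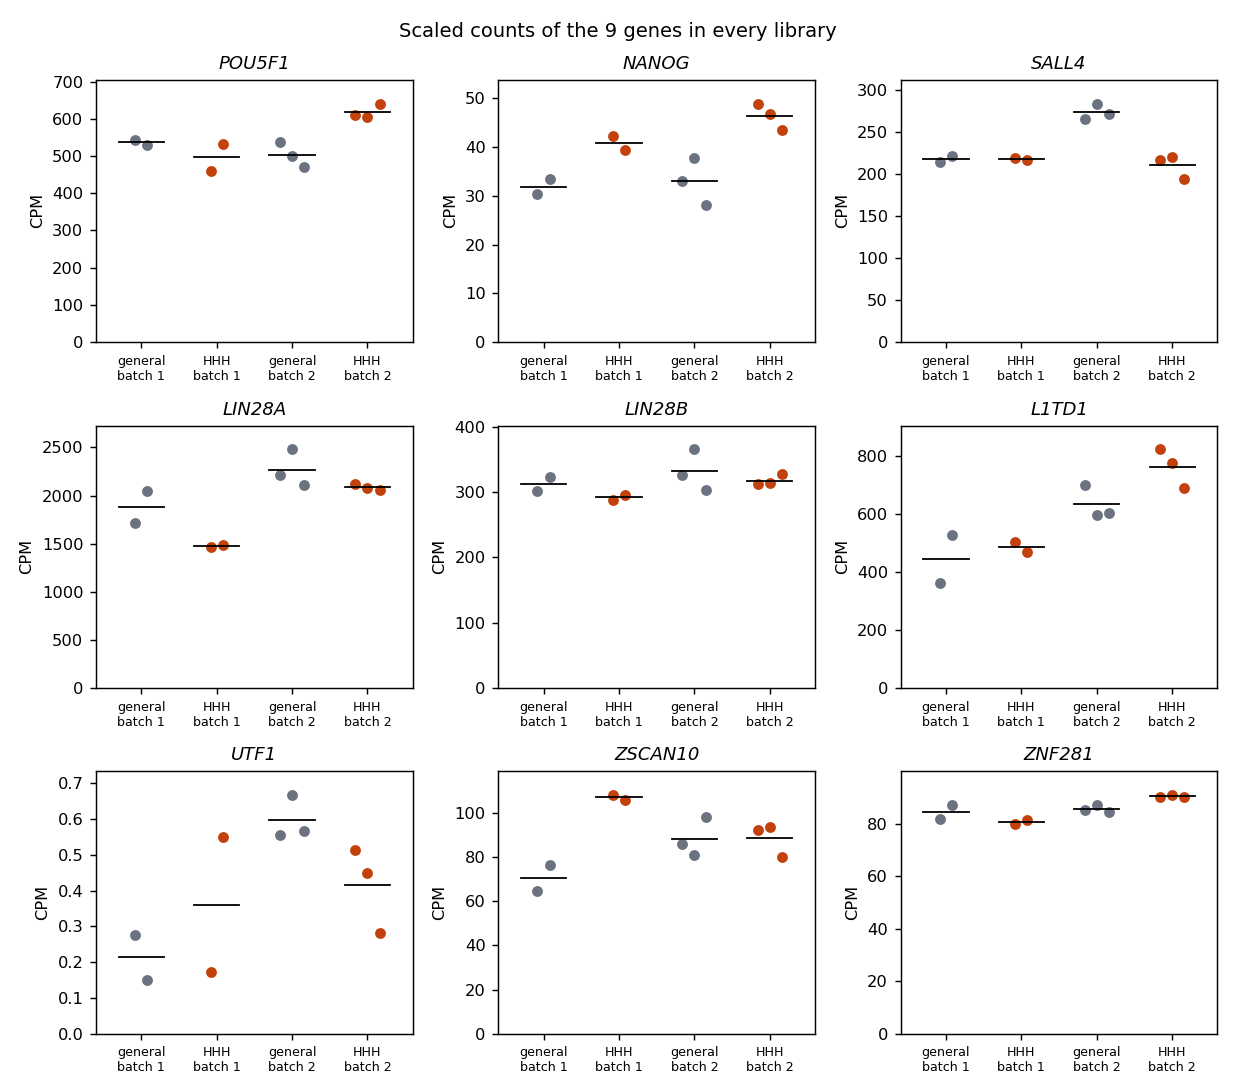
CPM of each gene in every library, 1 panel per gene with its own axis from 0, general cells in grey and HHH in orange by batch, and a line at the mean of each population and batch. NANOG is higher in every HHH library than in any general library, SALL4 stands out in the general libraries of batch 2, and ZSCAN10 in the HHH libraries of batch 1.

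The partners of these genes in the pluripotency network did not move as one. Of 24 tested partners 2 were higher in HHH, 7 lower and 15 did not pass. Of all tested genes 1.94% were called higher and 3.89% lower. The median log2 fold change of the partners was -0.04 against 0.016 for all tested genes. A fit blocked on replicate number called 1 higher and 7 lower, and DESeq2 called 4 and 8. Batch 1 alone called 2 higher and 3 lower, beside 0.573% of all tested genes called in either direction. Batch 2 alone called 1 and 7, beside 13.2%. SOX2, which binds DNA beside OCT4, was lower, with 235 ± 79.3 CPM in general and 198 ± 69.8 in HHH cells (SD, n = 5) and a log2 fold change of -0.26 ± 0.0677 (SE) and an adjusted p of 0.0375. PRDM14, a zinc finger regulator of the same network, was lower by more, with 74.1 ± 29.4 and 36.5 ± 13.1 CPM and a log2 fold change of -1 ± 0.0715 (adjusted p = 1.58e-06). OTX2, TFAP2C, RIF1 and SALL1, a paralog of SALL4, were lower too, with log2 fold changes of -1.47, -0.61, -0.26 and -0.51. FOXD3 and POU3F1 were higher, by 0.44 and 0.53, and both values came more from batch 1 (0.83 and 1.05) than from batch 2 (0.16 and 0.17). The paper had already reported POU3F1 as higher in HHH.

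Of 21 tested markers of the undifferentiated state, 5 were higher, 1 lower and 15 did not pass, beside 1.94% of all genes called higher and 3.89% lower, with a median log2 fold change of 0.25 against 0.016 for all tested genes, and DESeq2 called 8 higher. Batch 1 alone called 0 of 20 in either direction, with 4 higher and 1 lower at an unadjusted p under 0.05 in edgeR's test. Batch 2 alone called 8 higher and 1 lower. Over all tested genes batch 1 called 0.573% and batch 2 called 13.2%, in either direction. Those higher included LCK (0.30) and the Nodal pathway genes NODAL (0.79), LEFTY1 (1.04) and LEFTY2 (0.68), in log2 fold change. The paper had already reported these Nodal pathway genes as higher in HHH, and the list was chosen with earlier results known. Their calls, and the count and median that include them, are therefore not independent evidence. PODXL, a sialomucin of the cell surface, was the one lower, at -0.40 ± 0.0994 (SE, adjusted p = 0.0306).

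The NuRD complex, a chromatin remodeler and histone deacetylase that SALL4 and ZNF281 bind, showed 1 of 13 tested subunits lower and 0 higher, with 0 higher and 5 lower at an unadjusted p under 0.05. That subunit was MTA3, with 123 ± 30 CPM in general and 98.1 ± 21.2 in HHH cells (SD, n = 5) and a log2 fold change of -0.31 ± 0.0758 (SE) and an adjusted p of 0.025. DESeq2, limma with voom and the replicate block each called 2 lower and 0 higher. Batch 1 alone called 0, with 1 higher at an unadjusted p under 0.05 in edgeR's test, and batch 2 alone called 4 lower and 0 higher. Of all tested genes 3.89% were called lower over both batches. Batch 1 alone called 0.573% of them and batch 2 alone 13.2%, in either direction.

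Of the genes that process or degrade let-7, none passed over both batches. All 16 were tested, 0 passed in edgeR's test, DESeq2 or limma with voom, and 0 were higher and 1 lower at an unadjusted p under 0.05 in each. Batch 2 alone called 2 lower and 0 higher, beside 13.2% of all tested genes called in either direction. Batch 1 alone called 0, beside 0.573%, with 2 higher at an unadjusted p under 0.05 in edgeR's test. XPO5, which exports the precursors from the nucleus, had 170 ± 9.07 CPM in general and 164 ± 13 in HHH cells (SD, n = 5), and TRIM71, itself a let-7 target and stem cell RNA-binding protein, had 245 ± 28.9 and 214 ± 38.0 CPM. Of all tested genes 1.94% were called higher over both batches and 3.89% lower. Among 21 tested let-7 targets 1 was higher, 0 were lower and 20 did not pass. At an unadjusted p under 0.05 in edgeR's test 2 targets were higher and 0 lower. DESeq2 and limma with voom each called 1 target higher and 0 lower. The one was MYC, a growth regulator, with 32.3 ± 3.06 and 44.3 ± 4.96 CPM and a log2 fold change of 0.45 ± 0.0771 (SE) and an adjusted p of 0.00261. HMGA1, the most abundant target, differed by 0.02 and IGF2BP1 by 0.01 on the log2 scale. Of the let-7 host transcripts 3 were tested and 0 passed by any of these tools, also with 0 at an unadjusted p under 0.05. The host HUWE1 was abundant, with 472 ± 68.5 CPM in general and 414 ± 64.7 in HHH cells (SD, n = 5). The hosts with MIRLET7B and MIR100 had at most 47 and 36 counts.

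Some markers of other cell types differed between the populations. Of those that passed over both batches, THY1 was higher in HHH and all others were lower. Of all tested genes 1.94% were called higher and 3.89% lower. Of 6 tested neural markers 3 were lower in HHH and 0 higher, with 1 higher at an unadjusted p under 0.05 in edgeR's test. DESeq2 called 1 neural marker higher and 3 lower, and limma with voom called 0 higher and 2 lower. Batch 1 alone called 0 higher and 1 lower of 6, beside 0.573% of all tested genes called in either direction. Batch 2 alone called 1 higher and 5 lower of 7, beside 13.2%. LHX5, an early forebrain factor, differed most among them, with 6.82 ± 3.23 CPM in general and 0.145 ± 0.128 in HHH cells (SD, n = 5) and a fitted log2 fold change of -5.57, and SOX1 and ZIC1 were also lower. Summed over the 9 neural markers, most of it NES, the level was 192 to 225 CPM in general and 229 to 246 in HHH cells of batch 1, and 230 to 274 and 130 to 190 in batch 2, where SALL4 was lower in HHH too. Markers of mesoderm and endoderm summed to at most 2.59 CPM in any library, and 1 of 8 could be tested. The sum was 0.766 to 1.48 CPM in general and 1.95 to 2.59 in HHH cells of batch 1. In batch 2 it was 1.1 to 1.28 and 0.937 to 1.02. FOXA2 reached 0.906 CPM in general and 1.67 in HHH cells and was not tested over both batches. For amnion and trophoblast the sum was 5.73 to 10.6 CPM in general and 3.46 to 5.62 in HHH cells, nearly all KRT7, which was lower. Fibroblast markers summed to 268 to 282 CPM in general and 293 to 346 in HHH cells, with THY1, which stem cells also carry, higher and COL1A1 lower, and the defining DCN and COL3A1 at no more than 1 and 8 counts. GATA6 was at 0 in every HHH library and DCN and CGA in every general one. These 3 had at most 2, 1 and 1 counts in any library, under the floor of 3 counts, so their zeros show no difference. No listed marker was at 0 in all libraries, and the part of these cell types in the differences of NANOG and SALL4 was not tested.

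Other genes followed the members' patterns across the libraries, which share batch and depth. By Pearson's r of log2 CPM after the batch mean was removed, over the 10 libraries and 9523 protein-coding genes that averaged 10 CPM or more, those most like NANOG were GMPPA (0.985), AGPS (0.977), MTPAP (0.976), NRIP1 (0.973) and SRPK1 (0.970). KLHL25 was most like SALL4 (0.994) and GOLM2 most like POU5F1 (0.982). With so many genes compared over few libraries, values this high describe the best of many and nothing more.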

How the data were processed

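The authors deposited fragment counts per Ensembl gene, the main values here, and log2 RPKM values after TMM scaling with a batch term removed, a score whose batch means were equal in the 27641 genes with complete values. Per the submitters' processing notes, CASAVA 1.8.2, R 3.2.2, limma 3.26.9 and GRCh37 were used. The aligner, counting tool and strand setting are not given in the sources used here. Identifiers were matched to GENCODE 44 (49395 of 55841, 88.5%), whose GRCh38 coordinates are printed.

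Counts were tested with edgeR 4.0.16 in R 4.3.3 (quasi-likelihood, TMM, filterByExpr with a minimum count of 10, batch and population as terms, two-sided, Benjamini-Hochberg over all tested genes). A gene passed at an adjusted p under 0.05 and was called large above 1.5-fold. Batches were also fitted alone and with an interaction. The 2 ratios were tested by exact permutation within batches. Scripts were tested on simulated data. Members, lists and tests were chosen with earlier results of these data known. All members are named with their values. From each list, genes past the threshold or at most 3 of the highest mean CPM in general cells are named. A few other cell type markers were named after their values were seen. By Pearson's r the 5 genes most like a member that passed and the 1 most like each other member were ranked.

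Deviations from the mean of population and batch correlated between libraries of the same replicate number, at 0.113 in batch 1 and 0.239, 0.143 and 0.113 in batch 2, all above 0.1, and from -0.126 to -0.00512 between other numbers of batch 2. With 2 libraries a group, batch 1 can give only 0.113 or -0.113, and its unlike numbers 3 and 1 also had 0.113, so only batch 2 bears on the pairing. In batch 2 the deviations within a group cancel out as well. Its negative values between unlike numbers are therefore tied to the positive ones and are not separate evidence. No label says what a number marks. The fit with the replicate number as a block was an alternative. Other alternatives were no batch term, RLE, upper quartile or library size scaling, other filters, DESeq2 1.42.0, limma 3.58.1 with voom or on the deposited log2 values, small and mitochondrial RNAs left out, and each library left out. Promoter and microRNA sequences are of RefSeq GRCh38.p14, and copies were aligned to coding sequences of GENCODE 44 with Biopython 1.88 (local alignment). Some results for listed genes and sequences are not reported here.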

Additional observations from a re-analysis of the deposited data

Results flagged for a closer look

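The SALL4 level of 194 CPM in HHH batch 2 replicate 3 stood below the other 4 HHH libraries, at 217 to 221 CPM. The gap was 0.859 of the range of the group, which pools both batches. It was the only one of 18 groups of 5 libraries, 2 for each gene, to stand out in this way. Chance flags about 1 in 20, so a single flag among 18 groups can arise by chance. Without that library SALL4 in batch 2 gave a log2 fold change of -0.33 ± 0.0662 (SE) and an adjusted p of 0.0173 in edgeR's test.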

How the results depend on the processing

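Over all genes, 1373 passed, against 168 with no batch term, 2423 with no filter, 898 on the centred deposited log2 values, 136 in batch 1, 3166 in batch 2, and 808 (without HHH batch 2 replicate 2) to 2347 (without HHH batch 1 replicate 3) with each library left out. Of those, 66.6% were lower in HHH, against 85.7% with no batch term, 76.7% with library size alone, 56.1% with no filter, 49.3% in batch 1 and 96.1% on the deposited log2 values, where the median of all genes was -0.123. Of the 9 members 1 passed, against 0 when 1.5-fold was asked, with no batch term or in batch 1, and 2 in batch 2. Batch 1 called 136 genes, 271 with library size alone and 48 to 761 with a library left out. Batch 2 called 3166, then 1300 to 2924, and the interaction 183, then 21 to 222. The ratio of LIN28B to LIN28A went from 0.09 to 0.15 with a library left out, with an exact permutation p of 0.0167 without HHH batch 2 replicate 1. NANOG to POU5F1 was 0.48 in batch 1 and 0.2 in batch 2 (exact permutation p of 0.333 and 0.2), and 0.24 to 0.38 with a library left out, with p from 0.0333 to 0.0833. Within pairs of the same replicate number, a block added after seeing the data, it was 0.28 (p = 0.125, the smallest that exact permutation of 4 pairs allows), and LIN28B to LIN28A was 0.12 (exact permutation p = 0.25).

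Signs turned for members that did not pass: POU5F1 to 0 on the deposited log2 values and -0.12 in batch 1, UTF1 to 0.72 in batch 1 and from -0.48 to 0.07 with a library left out, ZSCAN10 to 0 in batch 2, and ZNF281 to 0 with upper quartile scaling, -0.02 with library size alone, -0.12 on the deposited log2 values and -0.07 in batch 1. For SALL4, limma on the deposited log2 values gave -0.37 and an adjusted p of 0.0431. These values and the scalings shift all genes alike (medians of -0.123, -0.008 with upper quartile and -0.022 with library size alone, against 0.016), so a sign or call that turns under them is not particular to a gene. With the deposited values centred, POU5F1 had 0.15, ZNF281 0.04 and SALL4 -0.21 (adjusted p = 0.197). The causes of the other changes were not tested. With the replicate number as a block, 1636 genes passed, NANOG had 0.46 and an adjusted p of 0.00857, and no member's call changed. UTF1 had no value with at least 1 CPM asked in 5 libraries. It had 8 to 38 counts, the fewest of the members.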
